A study of Mus musculus with 8 samples.

Results

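The effect of the kinase allele *Cdk4*-R24C was examined in islets that, by their genotype labels, lacked IRS2 in both groups compared. Rescue islets (*Irs2*-/-;*Cdk4*-R24C/R24C, 2 libraries, replicates 1 and 2) were set against Diabetic islets (*Irs2*-/-;*Cdk4*-WT/WT, 3 libraries, replicates 1, 2 and 3), which are 5 of the 8 libraries of the series. The 5 libraries were chosen by their genotype labels, and no measured value entered the choice. The other 3 libraries were Control islets (*Irs2*+/+;*Cdk4*-WT/WT), which were given beside single genes and were part of the fitted model. All mice were adult males, and their islets were freed with collagenase, purified on a Ficoll gradient, picked by hand and frozen before polyadenylated RNA was prepared. Both alleles are germ line alleles, so every cell type in the islet and every other tissue of the mouse carried them, and the mice had been crossed toward C57BL/6N without extensive backcrossing. A whole islet holds β, α, δ and PP cells with vessels, stroma and immune cells. In such bulk RNA, fewer cells of a type and less RNA per cell cannot be told apart. The labels do not say whether a library came from 1 mouse or from a pool, so each p-value measures only the spread between libraries.

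CDK4 is a kinase that joins with the D cyclins and phosphorylates RB and its relatives, which frees E2F transcription factors to switch on the genes of DNA replication. The INK4 proteins, p16 (from *Cdkn2a*), p15 (*Cdkn2b*), p18 (*Cdkn2c*) and p19 (*Cdkn2d*), bind CDK4 and block it, and the R24C form escapes that binding. IRS2 is an adaptor of the insulin and IGF1 receptors, and mice without it lose β cell mass and become diabetic. The comparison therefore asks how islet RNA differs when CDK4 resists its inhibitors and IRS2 is absent in both groups. The study reported high blood glucose in males of the Diabetic genotype. Males of the Rescue genotype had glucose like nondiabetic controls, high plasma insulin and restored β cell mass. The allele and the metabolic state of the mice therefore cannot be told apart in this comparison, and the study names that state as a caveat of its RNA-Seq.

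The codon that the allele changes is shown first, since it is the designed difference between the groups. It is codon 24 of *Cdk4*, in exon 2 on the plus strand of chromosome 10 (chr10:127064305-127064307 of GRCm38), and it reads CGA (arginine) in the reference. Codons 16 to 32 of the reference (chr10:127064281-127064331) are printed with codon 24 in capitals.
*Cdk4* codons 16 to 32: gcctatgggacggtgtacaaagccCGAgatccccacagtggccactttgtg
A gene-level value does not show which codon the reads held. *Cdk4* was 41.5 and 30.9 RPKM in the Rescue libraries, against 25.9, 18 and 19.1 RPKM in the Diabetic libraries and 42.4, 35.05 and 24.2 RPKM in the Control libraries. Both Rescue libraries lay above the 3 Diabetic libraries, but the difference did not pass the test (log2 difference 0.76, SE 0.26, adjusted p = 0.0538). It passed without Diabetic 1 (adjusted p = 0.0317) and without Control 4 (adjusted p = 0.0329). *Irs2* was 7.15 and 16.3 RPKM in the Rescue libraries, against 36.3, 31.6 and 21.98 RPKM in the Diabetic libraries (log2 difference −1.35, SE 0.38, adjusted p = 0.0285), with 5.14, 10.96 and 6.74 RPKM in the Control libraries. All 3 Diabetic libraries lay above the Control libraries and the Rescue libraries overlapped them. Counting was over the whole gene, so the *Irs2* value does not tell whether reads came from the deleted part, and neither gene served as a check of the labels. The adjusted p was above 0.05 without Rescue 1 for *Irs2* (0.209), without Diabetic 1 for *Irs2* (0.054), and without Diabetic 2 for *Irs2* (0.0845).

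RPKM values (reads scaled by transcript length and by the reads of the library) were compared on log2(RPKM + 1) for the 12301 of 24123 genes that reached 1 RPKM in at least 2 of the 5 libraries, and a gene was called when its Benjamini-Hochberg adjusted p from limma was under 0.05. Of the tested genes 3057 (24.9%) were higher and 744 (6.05%) were lower in Rescue islets, and 30.9% were called in either direction. The Rescue and Diabetic libraries did not overlap in 55.5% of the tested genes, and in 42.6% of the tested genes both Rescue libraries lay above all 3 Diabetic libraries. A log2 difference of at least 1 in size was seen in 1444 of the genes called higher and 277 of the genes called lower. The median log2 difference over all tested genes was 0.25 as deposited and 0.02 after TMM scaling of the RPKM values, so a gene that did not move relative to the rest lies near 0.25. After TMM scaling 2050 genes (16.7%) were higher and 1813 (14.7%) were lower. All 2050 were also called higher as deposited, all 744 genes called lower as deposited were also called lower after TMM scaling, and 1069 genes were called lower only after scaling. Differences of single genes are given on this log2 scale throughout. Among the 10505 genes at 1 RPKM in at least 2 libraries of each group, 20.7% were higher and 6.18% lower. The adjusted p of many genes depended on Rescue 1: without it 1485 genes were higher and 152 lower, and without Diabetic 2, 1876 were higher and 273 lower. Without Rescue 2 the count of lower genes was 1514. Reads in genes, recovered from the steps of the RPKM values, were 11.0 and 11.6 M in the Rescue libraries, 13.4, 10.3 and 12.3 M in the Diabetic libraries and 12.3 to 14.3 M in the Control libraries.

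**Figure D1:**
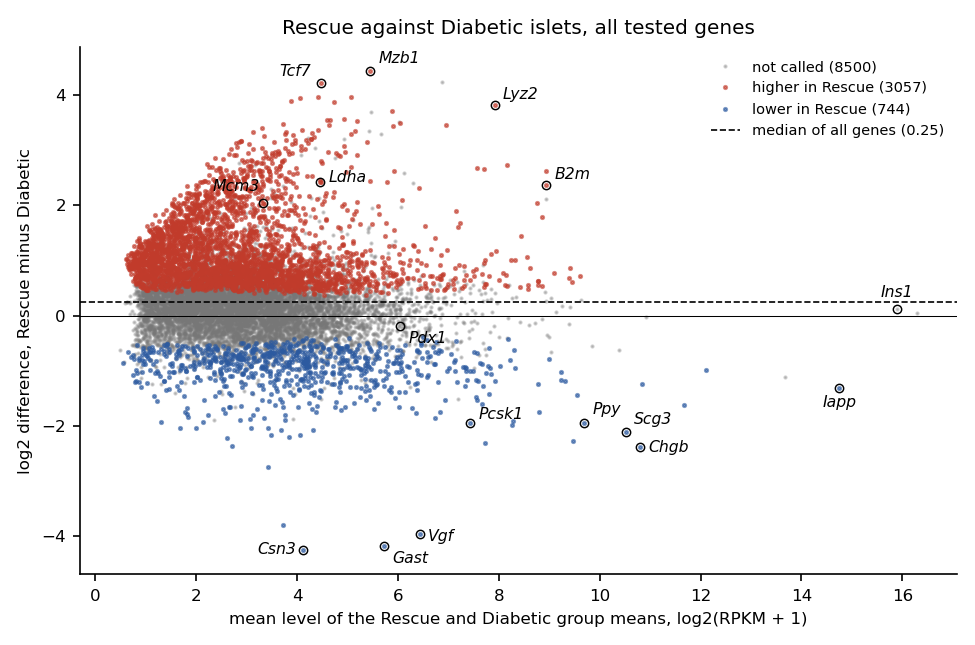
Log2 difference between Rescue and Diabetic islets (vertical) against the mean level of both groups in log2(RPKM + 1) (horizontal) for the 12301 tested genes. Red points were called higher (3057), blue points lower (744) and grey points were not called (8500). *Vgf*, *Gast* and *Csn3* lie near −4, the immune genes *Mzb1*, *Tcf7* and *Lyz2* near 4, and *Ins1* and *Pdx1* near 0.

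The groups stood apart as whole profiles. The Euclidean distance between the Rescue libraries was 52.6 on the log2 scale and that between Diabetic libraries was 44.3 to 70.6, whereas a Rescue and a Diabetic library lay 75.4 to 116.8 apart. On the first principal component of the 5 libraries (72.5% of the variance) the Rescue libraries were at −60.6 and −46.3 and the Diabetic libraries at 13.8, 40.1 and 53.0.

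Genes are named here by size of difference among those called, not overlapping between groups and at a mean of 5 RPKM or more in either group, so their size is a description. Those lower in Rescue islets were led by *Csn3*, a milk casein, at 0.517 and 0.119 RPKM in the Rescue libraries, against 50.3, 40.7 and 6.23 RPKM in the Diabetic libraries (log2 difference −4.26, SE 0.71, adjusted p = 0.00363). *Gast*, the stomach hormone gastrin, was 5.39 and 1.79 RPKM in Rescue and 159, 120.4 and 22.5 RPKM in Diabetic islets (log2 difference −4.19). *Vgf*, a granin-like protein of secretory granules, was 8.84 and 7.51 RPKM in Rescue and 214, 208 and 65.02 RPKM in Diabetic islets (log2 difference −3.97). In these 3 genes Diabetic 3 was the lowest Diabetic library. That it lay above both Rescue libraries was required by the rule that named them. *Pappa2*, a protease that cleaves IGF binding proteins, was 44.4 and 103 RPKM in the Rescue libraries, against 348, 443 and 253 RPKM in the Diabetic libraries (log2 difference −2.31, SE 0.38, adjusted p = 0.00344), with 34.9, 46.4 and 60.4 RPKM in Control. *Chil6*, a chitinase-like gene, was 1.24 and 1.04 RPKM in Rescue and 9.33, 10.4 and 7.52 RPKM in Diabetic islets (log2 difference −2.23). The Diabetic libraries differed little among themselves in *Chil6* and in *Slco1a6*, an organic anion transporter, which was 1.76 and 3.01 RPKM in Rescue and 12.6, 12.7 and 12.7 RPKM in Diabetic islets (log2 difference −2.04). *Cltrn*, a membrane protein of β cells and kidney that was placed in the α cell list, was 164 and 313 RPKM in Rescue and 1602, 1297 and 644 RPKM in Diabetic islets (log2 difference −2.27). Other genes of the same rank and in none of the lists were *Tm4sf20*, *Gsdma*, *Aff2*, *Tmed6*, *Ttyh1*, *Gucy2c*, *Taar1*, *Sorcs1*, *Cidea*, *Igsf5* and *Aqp4*, with log2 differences between −3.81 and −1.88. They include *Gucy2c*, the intestinal guanylin receptor, at 3.69 and 10.5 RPKM in Rescue and 36.6, 29.98 and 24.96 RPKM in Diabetic islets, *Taar1*, a trace amine receptor, at 1.78 and 6.73 RPKM in Rescue and 25.4, 19.7 and 12.7 RPKM in Diabetic islets, and *Cidea*, a lipid droplet protein, at 0.497 and 0.991 RPKM in Rescue and 8.15, 6.79 and 3.08 RPKM in Diabetic islets. *Csn3*, *Tm4sf20*, *Gsdma*, *Aff2*, *Sorcs1* and *Cidea* passed the filter on low values only through the Diabetic libraries. *Tm4sf20* rested on 3 and 1 reads in the Rescue libraries, against 900, 447 and 38 reads in the Diabetic libraries. Calls were lost, with the adjusted p in parentheses, without Rescue 1 for *Tm4sf20* (0.0981), *Gsdma* (0.117), *Tmed6* (0.0813), *Ttyh1* (0.0601), *Gucy2c* (0.0599), *Taar1* (0.0664), *Sorcs1* (0.197) and *Aqp4* (0.0678), without Rescue 2 for *Tm4sf20* (0.0676), *Gsdma* (0.112), *Ttyh1* (0.0585) and *Sorcs1* (0.106), without Diabetic 1 for *Sorcs1* (0.0775), without Diabetic 2 for *Tm4sf20* (0.0608), *Gsdma* (0.0926) and *Sorcs1* (0.131), without Control 1 for *Sorcs1* (0.0626), without Control 3 for *Sorcs1* (0.0661), and without Control 4 for *Sorcs1* (0.0562).

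Among genes called higher whose groups did not overlap and whose mean reached 5 RPKM in either group, *Mzb1* and *Tcf7* had the largest differences. *Mzb1*, a chaperone of antibody assembly in B and plasma cells, was 98.3 and 63.7 RPKM in the Rescue libraries, against 7.76, 4.31 and 0.0861 RPKM in the Diabetic libraries (log2 difference 4.44, SE 0.76, adjusted p = 0.004). *Tcf7*, a T cell transcription factor, was 39.2 and 43.03 RPKM in Rescue and 1.71, 2.94 and 0.0594 RPKM in Diabetic islets (log2 difference 4.23). *Lyz2*, a lysozyme of macrophages, was 468 and 394 RPKM in Rescue and 49.1, 94.8 and 4.86 RPKM in Diabetic islets (log2 difference 3.82). Diabetic 3 was far below the other Diabetic libraries in each of them, at 1 and 2 reads for *Mzb1* and *Tcf7*. *Dpt*, a matrix gene of fibroblasts, was also among the 15 largest (3.95). In none of the lists but among the largest differences outside them were *Gimap3*, a GTPase of lymphocytes (3.87), *Coro1a*, *Rac2* and *Arhgdib*, regulators of the leukocyte cytoskeleton (3.72, 3.56 and 3.5), *Ikzf1*, the lymphoid factor Ikaros (3.37), and the leukocyte surface genes *Cd52*, *Cd53*, *Spn*, *Itgb2* and *Itgb7* (3.43, 3.35, 3.26, 3.2 and 3.29). *Spn*, the leukocyte sialophorin CD43, was 18.8 and 15.5 RPKM in Rescue and 1.299, 1.73 and 0.0666 RPKM in Diabetic islets. *Arhgap45*, *Ptprcap*, *Ly6d* and *Serpina3g* were also in this group (log2 differences 3.31 to 3.55). With 1 library left out, the adjusted p exceeded 0.05 without Rescue 1 for *Lyz2* (0.131), *Coro1a* (0.108), *Rac2* (0.0753), *Arhgdib* (0.0826), *Arhgap45* (0.0836), *Ptprcap* (0.116), *Ly6d* (0.175), *Cd52* (0.138), *Cd53* (0.0833) and *Serpina3g* (0.0863), without Rescue 2 for *Lyz2* (0.072), *Coro1a* (0.0515), *Ly6d* (0.131), *Cd52* (0.0746) and *Cd53* (0.0668), without Diabetic 2 for *Ly6d* (0.0794), without Control 1 for *Ly6d* (0.0572), and without Control 4 for *Ly6d* (0.0532). After TMM scaling the adjusted p of *Ly6d* was 0.0518.

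Of the CDK4, RB and E2F genes (28 listed, 27 tested) 11 were higher (40.7%, against 24.9% of all tested genes). Lower was 1 (3.7%, against 6.05%). The median log2 difference was 0.33, against 0.25 over all tested genes. Of the 23 members at 1 RPKM in at least 2 libraries of both groups, 7 were higher and 1 lower. Of all such genes 20.7% were higher and 6.18% lower. After TMM scaling the median was 0.10, with 9 higher and 2 lower (16.7% and 14.7% of all tested genes). Of the 4 inhibitors that R24C escapes, 3 were higher in Rescue islets. *Cdkn2a*, whose locus also encodes ARF, was 3.67 and 4.78 RPKM in the Rescue libraries, against 0.741, 0.793 and 0.665 RPKM in the Diabetic libraries (log2 difference 1.58, SE 0.21, adjusted p = 0.0016), and was at 0.339, 0.334 and 0.959 RPKM in Control. It passed the filter only through the Rescue libraries, where it had 52 and 68 reads, against 12, 10 and 10 in the Diabetic libraries. *Cdkn2c* was 12.5 and 10.1 RPKM in the Rescue libraries, against 2.88, 3.77 and 4.82 RPKM in the Diabetic libraries (log2 difference 1.36, SE 0.20, adjusted p = 0.00252), and the groups did not overlap. *Cdkn2d* was also higher (log2 difference 0.91), whereas *Cdkn2b*, at 6.82 and 6.57 RPKM in Rescue and 5.198, 4.804 and 5.32 RPKM in Diabetic islets, was not called (log2 difference 0.33, adjusted p = 0.302). Of the kinases, *Cdk2*, which acts with the E and A cyclins, was 3.79 and 2.78 RPKM in Rescue and 1.01, 0.717 and 0.439 RPKM in Diabetic islets (log2 difference 1.32, SE 0.23, adjusted p = 0.00418) and *Cdk6*, the close relative of CDK4, was 1.69 and 1.602 RPKM in Rescue and 0.466, 0.472 and 0.139 RPKM in Diabetic islets (log2 difference 0.97, SE 0.16, adjusted p = 0.00339). Both passed the filter only through Rescue, as did *E2f8*. The threshold was missed, at the adjusted p given, without Rescue 1 for *Cdkn2d* (0.0801) and *E2f8* (0.0839).

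The D cyclins differed from one another. *Ccnd1*, the partner that CDK4 uses in many growing tissues, was 40.4 and 43.5 RPKM in the Rescue libraries, against 59.6, 64.98 and 63.7 RPKM in the Diabetic libraries (log2 difference −0.57, SE 0.14, adjusted p = 0.0189), and was the only member called lower. *Ccnd2*, the main D cyclin of β cells, was 174 and 162 RPKM in Rescue and 89.3, 142 and 218 RPKM in Diabetic islets, where the groups overlapped (log2 difference 0.25, adjusted p = 0.558). *Ccnd3*, a D cyclin with a known role in lymphocytes, was higher (log2 difference 0.60). *Ccne1*, a cyclin of S phase entry, *Rbl1*, the RB relative p107, and *E2f2*, *E2f4* and *E2f8* were higher, with log2 differences of 0.75 for *Ccne1*, 1.0 for *Rbl1*, 0.99 for *E2f2*, 0.77 for *E2f4* and 1.07 for *E2f8*. *Rb1* (0.19, adjusted p = 0.522), *E2f1* (−0.02, adjusted p = 0.957) and *Cdkn1a*, the inhibitor p21 (0.17, adjusted p = 0.704), were not called. *E2f1* was 9.69 and 6.27 RPKM in Rescue and 7.805, 7.75 and 8.303 RPKM in Diabetic islets. After TMM scaling *Ccnd3* and *Ccne1* did not pass (adjusted p = 0.0769 and 0.0784). Without Rescue 1, 4 of the 27 tested members were higher. The adjusted p was above 0.05 without Rescue 1 for *Ccnd1* (0.0805), *Ccnd3* (0.0713), *Ccne1* (0.254), *Rbl1* (0.0586), *E2f2* (0.133), *E2f4* (0.0616) and *E2f8* (0.0839), without Rescue 2 for *E2f4* (0.0545), without Diabetic 2 for *Ccnd1* (0.0688), *Ccnd3* (0.0509), *Ccne1* (0.124) and *E2f4* (0.0541), without Diabetic 3 for *Ccne1* (0.0759), without Control 1 for *Ccne1* (0.0662), without Control 3 for *Ccne1* (0.069), and without Control 4 for *Ccne1* (0.0563).

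Genes of DNA replication and S phase were higher as a group. Of 40 listed genes 37 were tested, 34 were higher and 0 were lower, the other 3 not being called (among them *Cdc6* and *Gins3*, log2 differences 0.60 and 0.34). The median log2 difference was 1.08 (0.87 after TMM scaling, where 28 were higher). Of the 28 members at 1 RPKM in at least 2 libraries of both groups, 26 were higher, against the 20.7% of all such genes. The helicase that unwinds DNA at the fork was raised in its subunits. *Mcm3* was 18.9 and 11.3 RPKM in the Rescue libraries, against 2.895, 3.17 and 2.39 RPKM in the Diabetic libraries (log2 difference 2.04, SE 0.23, adjusted p = 0.00125). *Mcm5* was 17.3 and 11.3 RPKM in Rescue and 2.16, 3.31 and 2.77 RPKM in Diabetic islets (log2 difference 2.01), and *Mcm6* was 23.4 and 15.5 RPKM in Rescue and 3.86, 5.28 and 4.91 RPKM in Diabetic islets (log2 difference 1.83). *Mcm2*, *Mcm4* and *Mcm7* were higher by 1.09, 1.78 and 1.54. In each of *Mcm3*, *Mcm5* and *Mcm6* Rescue 1 was the highest library, and the 3 Diabetic libraries lay close together, near the Control libraries (1.91, 1.61 and 2.396 RPKM for *Mcm3*). *Uhrf1*, which carries DNA methylation through replication, was 11.6 and 6.73 RPKM in the Rescue libraries, against 1.04, 1.79 and 0.787 RPKM in the Diabetic libraries (log2 difference 2.19, SE 0.26, adjusted p = 0.00134). *Pcna*, the sliding clamp of the polymerases, was 37.9 and 30.4 RPKM in the Rescue libraries, against 15.4, 13.3 and 12.5 RPKM in the Diabetic libraries (log2 difference 1.25, SE 0.16, adjusted p = 0.00155). *Rrm2*, a subunit of ribonucleotide reductase, and *Pold1*, a polymerase, were higher by 1.57 and 1.6. Without Rescue 1, 23 of the 37 tested members were higher.

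Promoters were read because the genes of this list moved together and E2F factors bind a known set of letters. RefSeq promoter windows (250 bases before to 50 after the start, GRCm38.p6) were matched by symbol for 30 of the 37 tested members. The E2F letters searched were TTTCCCGC, TTTCGCGC, TTTGCCGC and TTTGGCGC on both strands, and these can overlap one another. They were found in 14 of the 30 windows (46.7%), in 4.7% of 9815 tested genes and in 2.6% of all 27025 genes with a window. Of the 14 genes 12 were higher in Rescue islets, against 34 of 37 over the whole list. Of the 461 tested genes with the letters 147 were higher and 20 lower, against 3057 and 744 of all 12301 tested genes. The share of 46.7% is a property of the list, which was made of genes of DNA replication and S phase. The letters were in 6 of 20 windows of the CDK4, RB and E2F list and in 1 of 32 windows of the mitosis list (3.12%). The 200 bases before the start of *Mcm6* (chr1:128359706-128359905, minus strand, 3 matches), *Mcm5* (chr8:75109309-75109508, plus strand, 2 overlapping matches) and *Uhrf1* (chr17:56304113-56304312, plus strand, 1 match) are printed 5′ to 3′ along the gene, with the matches in capitals.
*Mcm6*: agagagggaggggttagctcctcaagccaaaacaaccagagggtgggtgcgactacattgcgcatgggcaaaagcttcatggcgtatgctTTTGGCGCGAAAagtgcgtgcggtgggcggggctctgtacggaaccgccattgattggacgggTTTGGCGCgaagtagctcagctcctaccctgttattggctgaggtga
*Mcm5*: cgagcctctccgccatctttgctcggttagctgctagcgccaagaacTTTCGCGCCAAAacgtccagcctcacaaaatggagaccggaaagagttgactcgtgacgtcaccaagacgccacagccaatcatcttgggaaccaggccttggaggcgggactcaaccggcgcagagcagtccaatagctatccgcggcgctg
*Uhrf1*: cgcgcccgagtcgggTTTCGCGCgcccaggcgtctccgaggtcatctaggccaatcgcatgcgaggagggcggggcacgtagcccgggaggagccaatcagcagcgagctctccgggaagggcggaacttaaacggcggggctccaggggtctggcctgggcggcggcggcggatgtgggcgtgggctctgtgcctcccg
A match is a description of the letters and not a site of binding.

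Genes of G2 and mitosis were higher in nearly every tested member. Of 40 listed genes 39 were tested, 38 were higher and 0 were lower, with a median log2 difference of 1.29 (1.14 after TMM scaling, where 32 were higher). Of the 25 members at 1 RPKM in at least 2 libraries of both groups, 24 were higher. *Ccnb2*, a B cyclin, was 15.4 and 6.89 RPKM in the Rescue libraries, against 1.28, 2.06 and 1.88 RPKM in the Diabetic libraries (log2 difference 2.06, SE 0.30, adjusted p = 0.00231). *Mki67*, the proliferation antigen Ki-67, was 34.02 and 14.5 RPKM in the Rescue libraries, against 2.799, 5.802 and 6.995 RPKM in the Diabetic libraries (log2 difference 1.98, SE 0.42, adjusted p = 0.0096). *Top2a*, the topoisomerase that untangles chromosomes, was 22.6 and 12.9 RPKM in Rescue and 2.17, 4.796 and 5.28 RPKM in Diabetic islets (log2 difference 1.9). In these 3 genes Rescue 1 was above Rescue 2, and Rescue 2 was above every Diabetic library. *Kif11*, a spindle motor, and *Aurkb*, a kinase of chromosome segregation, were higher by 1.85 and 1.91, and *Cdc20*, an activator of the anaphase complex, and *Cdkn3*, a CDK phosphatase, by 1.88 and 1.84. *Aurkb* passed the filter only through Rescue. *Pbk* was not called (log2 difference 0.52, adjusted p = 0.409). Summed over the 40 genes the level was 297 and 154 RPKM in Rescue, 36.6, 62.4 and 68.4 RPKM in Diabetic and 43.1 to 63.7 RPKM in Control. Without Rescue 1, 20 of the 39 tested members were higher. Calls were lost, with the adjusted p in parentheses, without Rescue 1 for *Mki67* (0.0866), *Cdc20* (0.0575) and *Cdkn3* (0.116).

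Markers of dividing lymphocytes moved in the same direction as the cell cycle lists. Of 15 germinal centre B cell genes 12 were tested, 11 were higher and 0 lower, and their summed level was 145 and 88.9 RPKM in Rescue, 37.2, 30.7 and 23.4 RPKM in Diabetic and 29.7 to 36.9 RPKM in Control, with Rescue 1 above Rescue 2 as in the cell cycle lists. Of the 12, 6 passed the filter only through Rescue, which selects for genes that are higher there. Among all 1397 tested genes with under 2 Diabetic libraries at 1 RPKM, 881 were higher. Of the 6 germinal centre genes at 1 RPKM in both groups 5 were higher. *Gcsam*, a germinal centre signalling gene that passed only through Rescue, was 10.2 and 3.08 RPKM in Rescue and 0.359, 0.434 and 0 RPKM in Diabetic islets (log2 difference 2.44). The part of lymphocytes in the cell cycle differences was not tested.

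**Figure D2:**
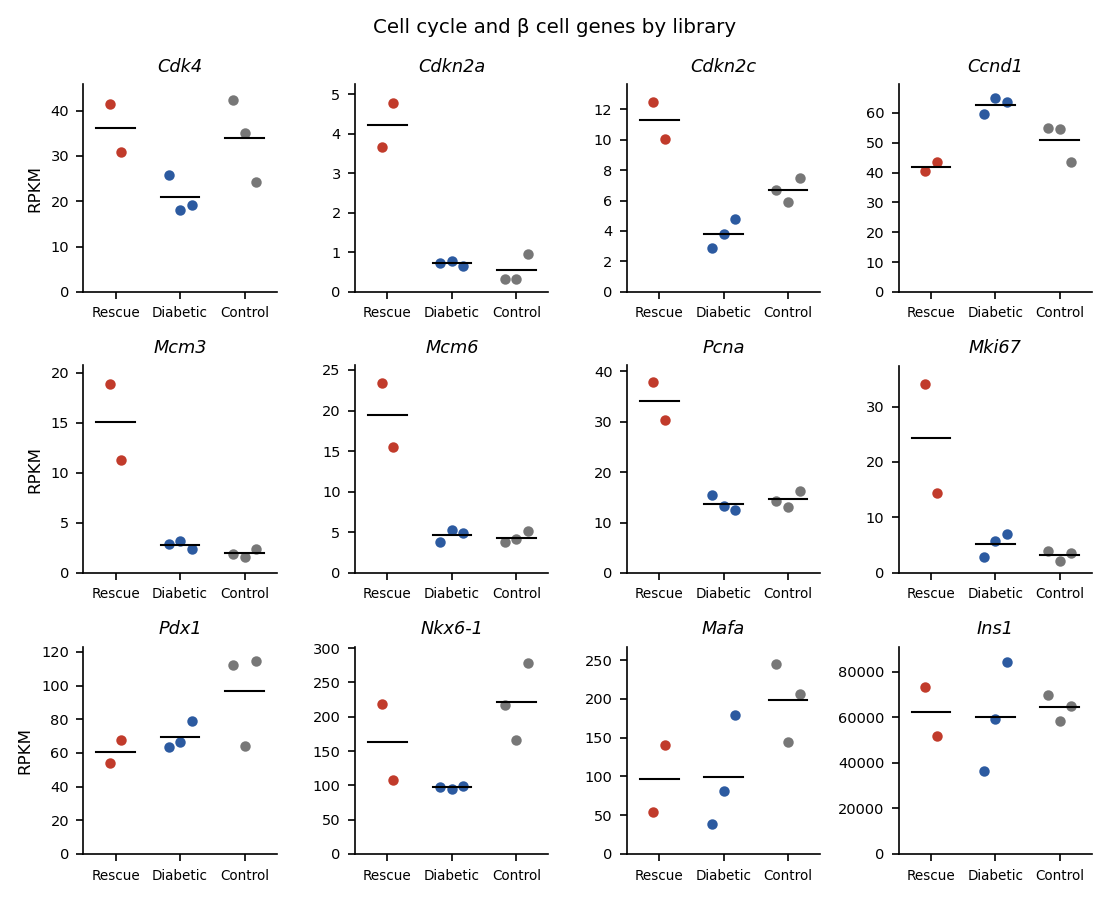
RPKM of 12 genes in each library (points) with the group mean (line), Rescue (red), Diabetic (blue) and Control (grey). The replication and mitosis genes *Mcm3*, *Mcm6*, *Pcna* and *Mki67* and the inhibitors *Cdkn2a* and *Cdkn2c* were higher in both Rescue libraries than in any Diabetic library, *Ccnd1* was lower, and *Pdx1*, *Mafa* and *Ins1* overlapped.

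T and NK cell genes were higher in each tested member (27 of 27, of 34 listed and 31 in the table), with a median log2 difference of 2.79. Of the 27, 19 passed the filter only through Rescue, which selects for genes that are higher there. Of the 8 at 1 RPKM in both groups 8 were higher. Their summed level was 292 and 360 RPKM in Rescue, 30.2, 36.6 and 2.24 RPKM in Diabetic and 1.38 to 5.51 RPKM in Control. In Diabetic 3, 17 of the 31 genes were at 0. *Cd3d*, a chain of the T cell receptor complex, was 13.3 and 16.02 RPKM in the Rescue libraries, against 0.279, 1.95 and 0 RPKM in the Diabetic libraries (log2 difference 3.33, SE 0.39, adjusted p = 0.00128). *Lck*, the kinase next to that receptor, was 23.2 and 23.01 RPKM in Rescue and 1.75, 2.25 and 0.133 RPKM in Diabetic islets (log2 difference 3.48), and *Il7r*, the interleukin 7 receptor of naive and memory T cells, was 14.5 and 19.3 RPKM in Rescue and 0.993, 1.33 and 0.0243 RPKM in Diabetic islets (log2 difference 3.4). Helper and cytotoxic genes were both higher, *Cd4* by 3.04 and *Cd8b1* by 3.17. Of the genes named here, *Cd3d*, *Il7r* and *Cd8b1* passed the filter only through Rescue.

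B and plasma cell genes were higher in 21 of 26 tested members (0 lower, median 2.66), and in 15 of the 20 at 1 RPKM in both groups. *Pou2af1*, a B cell coactivator, was 70.7 and 50.9 RPKM in the Rescue libraries, against 8.095, 5.51 and 0 RPKM in the Diabetic libraries (log2 difference 3.97, SE 0.84, adjusted p = 0.00973). *Spib*, a B cell factor, was higher by 3.38, and *Ms4a1*, the antigen CD20, by 2.95. *Cd79b*, a chain of the B cell antigen receptor, was 90.2 and 54 RPKM in Rescue and 26.4, 9.55 and 0.163 RPKM in Diabetic islets (adjusted p = 0.0594). Its Rescue libraries lay above the 3 Diabetic libraries, without passing the test. The summed level was 1104 and 788 RPKM in Rescue and 392, 173 and 99.2 RPKM in Diabetic islets, so Diabetic 1 lay nearest to Rescue. Without Rescue 1, 3 of 26 were higher, without Rescue 2, 12, and without Diabetic 2, 10. With 1 library left out, the adjusted p exceeded 0.05 without Rescue 1 for *Pou2af1* (0.0811), *Spib* (0.112) and *Ms4a1* (0.134), without Rescue 2 for *Ms4a1* (0.0782), and without Diabetic 2 for *Ms4a1* (0.0637).

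Myeloid genes were higher in 23 of 25 tested members (0 lower, median 1.77; 13 of the 15 at 1 RPKM in both groups). *Lyz1*, a lysozyme gene that passed the filter only through Rescue, was 27.5 and 25.2 RPKM in the Rescue libraries, against 0.516, 2.797 and 0.0617 RPKM in the Diabetic libraries (log2 difference 3.9, SE 0.44, adjusted p = 0.00126), *Ctss*, a protease of antigen processing, was 125 and 155 RPKM in Rescue and 36.3, 36.7 and 15.3 RPKM in Diabetic islets (log2 difference 2.31), and *Tyrobp*, a signalling adaptor, was higher by 2.53. *Csf1r*, the receptor that macrophages need, was higher by 1.77, but *Adgre1*, the macrophage antigen F4/80, and *C1qa* were not called (0.54 and −0.06, adjusted p = 0.116 and 0.876). The summed level of the list was 977 and 994 RPKM in Rescue, against 253, 336 and 125 RPKM in Diabetic islets.

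Antigen presentation was higher in most tested members. Of 42 tested genes of MHC class I and the interferon response 36 were higher and 0 lower (median 1.43; 31 of the 37 at 1 RPKM in both groups). *B2m*, the light chain of class I, was 762 and 853 RPKM in the Rescue libraries, against 211, 218 and 80.4 RPKM in the Diabetic libraries (log2 difference 2.37, SE 0.40, adjusted p = 0.00369). *Psmb8*, an immunoproteasome subunit, was 37.98 and 33.6 RPKM in Rescue and 8.23, 6.86 and 3.05 RPKM in Diabetic islets (log2 difference 2.47). The heavy chain gene *H2-K1* was higher by 1.17 and *H2-D1* by 1.01, although reads of these close relatives can be shared. Of the 10 tested class II genes 8 were higher (median 2.64). *Cd74*, the invariant chain, was 881 and 753 RPKM in the Rescue libraries, against 251.2, 182 and 50.1 RPKM in the Diabetic libraries (log2 difference 2.62, SE 0.57, adjusted p = 0.0107). *H2-Aa*, a class II chain, was 359 and 342 RPKM in Rescue and 103, 76.7 and 20.2 RPKM in Diabetic islets (log2 difference 2.66), and Diabetic 1 was the highest Diabetic library in both. Without Rescue 1, 0 of the 10 class II genes passed the adjusted threshold. The threshold was missed, at the adjusted p given, without Rescue 1 for *Cd74* (0.0815) and *H2-Aa* (0.0713).

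Chemokines, complement and stroma followed. Of 29 tested chemokine genes 23 were higher and 1, *Ccl28*, which passed the filter only through Diabetic, was lower (−1.03), and 8 of the 12 at 1 RPKM in both groups were higher. *Cxcr4*, a receptor that retains immune and stem cells in tissue, was 30.1 and 40.05 RPKM in the Rescue libraries, against 5.53, 2.31 and 1.47 RPKM in the Diabetic libraries (log2 difference 3.25, SE 0.40, adjusted p = 0.0014), and its ligand *Cxcl12* was higher by 2.47. *Ccl5*, a T cell attractant, was 17.3 and 30.6 RPKM in Rescue and 2.71, 1.74 and 0.325 RPKM in Diabetic islets (log2 difference 3.33). Of 16 tested complement genes 10 were higher, and of the 13 at 1 RPKM in both groups 8 were higher. Among the 10 was *C4b*, at 16.2 and 24.8 RPKM in Rescue and 3.84, 1.88 and 0.479 RPKM in Diabetic islets (log2 difference 2.94). *C3*, the central component, was 197 and 236 RPKM in Rescue and 45.2, 38.01 and 3.33 RPKM in Diabetic islets (log2 difference 3.45). Fibroblast and pericyte genes were higher in 17 of 27 tested members (12 of the 21 at 1 RPKM in both groups, median 1.09). *Dpt*, the matrix protein dermatopontin, was 26.4 and 33.8 RPKM in Rescue and 1.39, 1.24 and 0.497 RPKM in Diabetic islets (log2 difference 3.95), and *Fn1*, fibronectin, was 16.7 and 16.1 RPKM in Rescue and 2.26, 2.47 and 0.2401 RPKM in Diabetic islets (log2 difference 2.85). The collagens *Col1a1* and *Col3a1* were not called (1.24 and 1.17, adjusted p = 0.116 and 0.0945), although the Rescue and Diabetic libraries did not overlap. In a fit to these 5 libraries alone the adjusted p was 0.0127 and 0.0125, and without Control 4 it was 0.00449 and 0.0063. Of 22 tested endothelial genes 5 were higher (22.7%, against 24.9% of all tested genes) and 1 was lower (4.55%, against 6.05%). Of 13 tested genes of lymphoid stroma 7 were higher, and of the 8 at 1 RPKM in both groups 4 were higher. *Kdr* and *Cdh5*, which define vessels, were not called (0.27 and 0.41, adjusted p = 0.319 and 0.137). Acinar genes, 18 tested, had 0 higher and 1 lower (*Bhlha15*, −0.58), and their summed level overlapped between groups, at 298 and 88.8 RPKM in Rescue and 495, 757 and 136 RPKM in Diabetic islets. *Bhlha15* did not follow that sum, with 790 and 1048 reads in Rescue and 1479, 1090 and 1752 reads in Diabetic islets. Without Diabetic 3, 8 of the 18 acinar genes were lower. Without Rescue 1, 10 of the fibroblast genes, 3 of the endothelial genes and 4 of the lymphoid stroma genes were higher. Without Rescue 2, 6 of the complement genes and 4 of the lymphoid stroma genes were higher, and without Diabetic 1, 11 of the lymphoid stroma genes. The adjusted p was above 0.05 without Rescue 1 for *C3* (0.108), *Ccl28* (0.297) and *Bhlha15* (0.217), without Rescue 2 for *C3* (0.0832), without Diabetic 1 for *Ccl28* (0.0855) and *Bhlha15* (0.0501), without Diabetic 2 for *Ccl28* (0.134) and *Bhlha15* (0.0636), without Diabetic 3 for *Bhlha15* (0.106), without Control 1 for *Ccl28* (0.0653) and *Bhlha15* (0.0648), without Control 3 for *Ccl28* (0.071) and *Bhlha15* (0.0671), and without Control 4 for *Ccl28* (0.0571) and *Bhlha15* (0.0504).

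**Figure D3:**
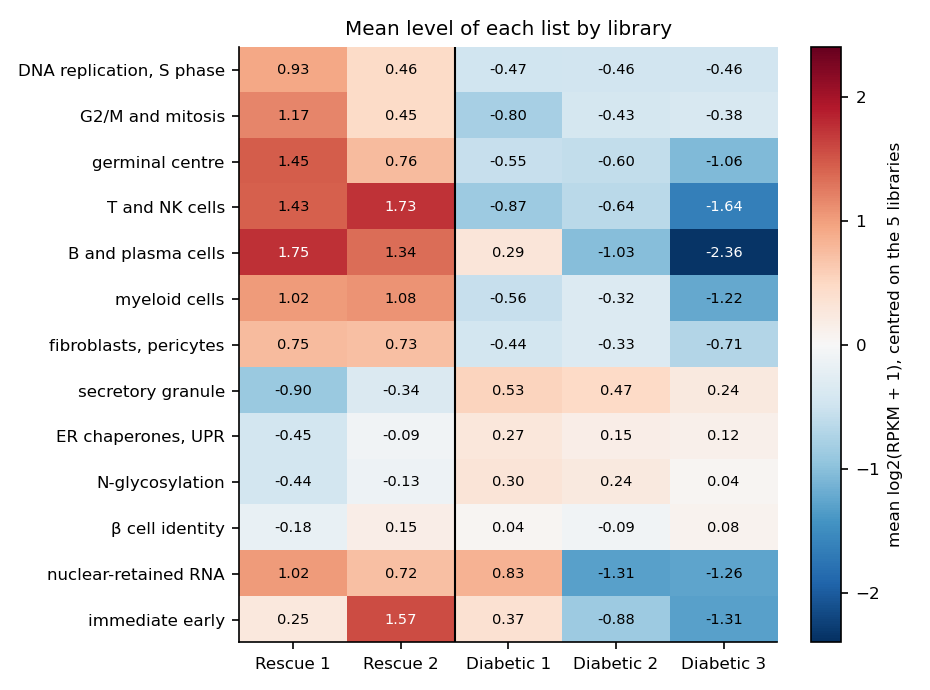
Mean log2(RPKM + 1) of the tested members of each list in the 5 libraries, centred on the 5 libraries, with Rescue at left and Diabetic at right of the line. The cell cycle and immune lists were above 0 in both Rescue libraries, the secretory lists were below 0 in both, and Diabetic 1 stood near Rescue 1 for nuclear-retained and immediate early RNA.

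β cell identity genes were seldom called higher. Of 45 listed genes 42 were tested. Of these 1 was higher (2.38%, against 24.9% of all tested genes) and 5 were lower (11.9%, against 6.05%). Among the 5 were the prohormone processing enzymes *Pcsk1*, *Pcsk2* and *Cpe*. The secretory granule list covers that class too, so the lower share here is not independent of the granule result. The median log2 difference of the β cell identity list was 0.01, against 0.25 over all tested genes. After TMM scaling it was −0.25, against 0.02 over all tested genes. The list median was −0.22 after median-of-ratios and −0.10 after quantile scaling and −0.16 without Rescue 2. After TMM scaling 1 was higher and 9 were lower, where 16.7% of all tested genes were higher and 14.7% lower. *Pdx1*, the homeodomain factor of β cell identity, was 53.97 and 67.6 RPKM in the Rescue libraries, against 63.2, 66.8 and 79.1 RPKM in the Diabetic libraries, where the groups overlapped (log2 difference −0.20, SE 0.26, adjusted p = 0.574). *Nkx6-1*, which holds the β cell program, was 219 and 107 RPKM in Rescue and 98.2, 95.1 and 99.05 RPKM in Diabetic islets, with Rescue 2 close to the Diabetic libraries (log2 difference 0.65, adjusted p = 0.131). *Mafa*, a factor of the mature β cell, was 53.9 and 140.5 RPKM in Rescue and 38.95, 81.8 and 179 RPKM in Diabetic islets, and ranged more widely within the groups than between them (log2 difference 0.07, adjusted p = 0.941). *Ins1* and *Ins2*, the insulin genes, had log2 differences of 0.12 and 0.05 (adjusted p = 0.848 and 0.939), and *Ins1* was 73364 and 51669 RPKM in Rescue and 36579, 59235 and 84398 RPKM in Diabetic islets. *Slc2a2*, the glucose transporter GLUT2, was 23.3 and 54.5 RPKM in Rescue and 30.9, 40.6 and 35.4 RPKM in Diabetic islets, against 108, 164 and 221 RPKM in Control (log2 difference 0.01, adjusted p = 0.985). *Neurod1* and *Foxa2*, factors of the endocrine lineage, had log2 differences of −0.14 and 0.00.

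The called genes of the list included 1 lineage factor, *Hnf4a*. *Trpm5*, a cation channel of stimulus and secretion coupling, was 12.8 and 14.2 RPKM in the Rescue libraries, against 1.73, 2.59 and 6.396 RPKM in the Diabetic libraries (log2 difference 1.8, SE 0.47, adjusted p = 0.0222). *Pcsk1*, which cuts proinsulin and other prohormones, was 43.6 and 106 RPKM in Rescue and 239, 299.6 and 269 RPKM in Diabetic islets (log2 difference −1.96), and *Pcsk2*, another such enzyme, was 296 and 531 RPKM in Rescue and 901, 1249 and 1130.0 RPKM in Diabetic islets (log2 difference −1.45). *Cpe*, which trims the cut ends, was 865 and 1350.0 RPKM in Rescue and 2574, 2696 and 2450.0 RPKM in Diabetic islets (log2 difference −1.25), and *Iapp*, the amyloid peptide secreted with insulin, was 13493 and 17925 RPKM in Rescue and 44225, 42489 and 30570.0 RPKM in Diabetic islets (log2 difference −1.31). *Hnf4a*, a factor of endoderm, was lower, at −0.84. Of genes that follow β cell maturity, *Ucn3*, the peptide urocortin 3, was 252 and 269 RPKM in Rescue and 85.97, 146 and 209.7 RPKM in Diabetic islets, both Rescue libraries being above the 3 Diabetic libraries without passing the test (log2 difference 0.91, SE 0.33, adjusted p = 0.0681). *Glp1r*, the GLP-1 receptor, was 10.8 and 49.6 RPKM in Rescue and 57.5, 56.8 and 47.98 RPKM in Diabetic islets (log2 difference −1.17, adjusted p = 0.102; after TMM scaling −1.44, adjusted p = 0.0483), and *Gipr*, the GIP receptor, was 38.4 and 26.8 RPKM in Rescue and 18.8, 3.07 and 4.39 RPKM in Diabetic islets (log2 difference 2.13, adjusted p = 0.0892). *Baiap3*, a gene of dense-core granules, *Hmgn3*, a nucleosome-binding protein, and the enzymes *Glrx*, *Hadh*, *Pfkfb2* and *Glul* were not called, with log2 differences of 0.97, 0.66, 0.57, 0.43, 0.22 and 0.21. Without Rescue 1, 3 of the list were lower, and without Rescue 2, 8. The list had 6 higher and 7 lower without Diabetic 1, and 4 higher and 4 lower without Diabetic 3. Some genes not called above passed the limma test with 1 library left out. They were *Baiap3* (adjusted p = 0.0279), *Hmgn3* (0.0101) and *Gipr* (0.0248) without Diabetic 1. *Baiap3* (0.0354) and *Gipr* (0.0345) passed without Control 4. *Ucn3* (0.0181), *Glrx* (0.0469) and *Hadh* (0.0434) passed without Diabetic 3. *Nkx6-1* (0.0158, higher) and *Glp1r* (0.00277, lower) passed without Rescue 2. Calls were lost, with the adjusted p in parentheses, without Rescue 1 for *Trpm5* (0.104), *Iapp* (0.105) and *Hnf4a* (0.155), without Rescue 2 for *Trpm5* (0.0819), without Diabetic 2 for *Trpm5* (0.0719) and *Iapp* (0.0632), and without Diabetic 3 for *Hnf4a* (0.0616).

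Genes used as markers of dedifferentiation and of immature or disallowed programs moved in both directions (21 tested, 8 higher and 7 lower). Their median of 0.30 was −0.08 after quantile scaling, −0.07 without Rescue 1, −0.21 without Diabetic 1 and −0.18 without Diabetic 2. *Aldh1a3*, an aldehyde dehydrogenase that marks failing β cells, was 1.93 and 4.16 RPKM in the Rescue libraries, against 19.04, 22.7 and 7.78 RPKM in the Diabetic libraries (log2 difference −2.05, SE 0.46, adjusted p = 0.0119), with 1.71, 0.407 and 0.791 RPKM in Control. *Serpina7*, the thyroxine carrier, was 2.23 and 7.71 RPKM in Rescue and 31.1, 14.1 and 14.8 RPKM in Diabetic islets (log2 difference −1.89), and *Gc*, the vitamin D binding protein, was 40.8 and 45.6 RPKM in Rescue and 132, 86.2 and 70.3 RPKM in Diabetic islets (log2 difference −1.09). *Neurog3*, the factor of endocrine progenitors, was low in both groups, at 0.641 and 0.787 RPKM in Rescue and 2.12, 1.39 and 1.63 RPKM in Diabetic islets (log2 difference −0.65), *Fev*, a serotonin lineage factor, was lower, at −0.63, and *Cartpt*, a neuropeptide gene, at −0.69. The genes that were higher are also expressed outside the β cell. *Ldha*, lactate dehydrogenase, which β cells normally keep low, was 38.03 and 33.9 RPKM in the Rescue libraries, against 6.72, 8.06 and 3.603 RPKM in the Diabetic libraries (log2 difference 2.43, SE 0.26, adjusted p = 0.00106). *Vim*, an intermediate filament of mesenchyme and leukocytes, was 52.1 and 51.9 RPKM in Rescue and 9.94, 14.1 and 3.07 RPKM in Diabetic islets (log2 difference 2.6), *Myc*, a transcription factor of growth and division, was 9.18 and 17.1 RPKM in Rescue and 2.69, 1.88 and 0.832 RPKM in Diabetic islets (log2 difference 2.34), and *Hk1* and *Hk2*, hexokinases, were higher by 1.21 and 1.27. *Penk*, a proenkephalin, and *Bach2*, a factor with a known role in lymphocytes, were higher by 1.83 and 1.45. *Hk2*, *Penk* and *Bach2* passed the filter only through Rescue and *Neurog3* only through Diabetic. *Cck* was above 1 RPKM only in Diabetic 1 and Diabetic 2, at 0.127 and 0 RPKM in Rescue and 2.11, 2.85 and 0.0597 RPKM in Diabetic islets (adjusted p = 0.0912). Immune and fibroblast lists were higher in the same libraries, and their part in *Ldha*, *Vim*, *Myc* and the hexokinases was not tested. Without Rescue 1, 1 member was lower. With 1 library left out, the adjusted p exceeded 0.05 without Rescue 1 for *Aldh1a3* (0.11), *Serpina7* (0.112), *Gc* (0.0822), *Neurog3* (0.146), *Fev* (0.135), *Cartpt* (0.0966) and *Bach2* (0.0648), without Rescue 2 for *Neurog3* (0.0586), *Fev* (0.0624) and *Myc* (0.0638), without Diabetic 1 for *Neurog3* (0.0538), without Diabetic 3 for *Neurog3* (0.0514) and *Fev* (0.0739), without Control 1 for *Neurog3* (0.0523) and *Fev* (0.0521), and without Control 3 for *Fev* (0.0558).

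Hormones of the other islet cells were lower or not called. Of 5 tested genes of PP and ε cells 4 were lower, of 4 tested δ cell genes 2 were lower and 1 was higher, and of 11 tested α cell genes 2 were lower (1 to 4 with 1 library left out). Without Rescue 1, 1 of the PP and ε cell genes was lower, and without Diabetic 2, 2. *Ppy*, pancreatic polypeptide, was 266 and 380.0 RPKM in the Rescue libraries, against 1982, 760.5 and 1228 RPKM in the Diabetic libraries (log2 difference −1.94, SE 0.37, adjusted p = 0.006), and *Pyy*, peptide YY, was 416 and 349 RPKM in Rescue and 1096, 692 and 865 RPKM in Diabetic islets (log2 difference −1.19, SE 0.21, adjusted p = 0.00463). Control libraries held 4677, 3907 and 3510.0 RPKM of *Ppy*. *Sst*, somatostatin of δ cells, was 506 and 308 RPKM in Rescue and 733, 770.0 and 904 RPKM in Diabetic islets, against 2804, 4302 and 3689 RPKM in Control (log2 difference −1.02), while *Hhex*, the factor of δ cells, was higher (log2 difference 1.07) and *Rbp4*, the retinol carrier, was 23.6 and 17.5 RPKM in Rescue and 70.5, 79.5 and 57.3 RPKM in Diabetic islets (log2 difference −1.7). *Gcg*, glucagon, was 5759 and 10603 RPKM in Rescue and 10051, 20698 and 23085 RPKM in Diabetic islets, with overlap and no call (log2 difference −1.11, adjusted p = 0.0807). Of 12 tested duct genes 7 were lower and 0 higher (median −0.68). They were *Tspan8* at 2.67 and 7.55 RPKM in Rescue and 41.1, 23.2 and 14.8 RPKM in Diabetic islets (log2 difference −2.17), the keratins *Krt7*, *Krt8* and *Krt18* (−0.93, −0.69 and −0.67), the adhesion molecule *Epcam* (−1.03), *Spp1* (−1.09) and *Anxa4* (−1.04). *Epcam*, *Krt8* and *Krt18* are made by endocrine cells too. The threshold was missed, at the adjusted p given, without Rescue 1 for *Ppy* (0.0615), *Hhex* (0.0603), *Tspan8* (0.0692) and *Anxa4* (0.135), without Rescue 2 for *Sst* (0.0938) and *Hhex* (0.0605), and without Diabetic 2 for *Sst* (0.0609), *Hhex* (0.0509) and *Anxa4* (0.0663).

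Secretory granule genes were lower in 20 of 30 tested members and higher in 0, with a median log2 difference of −0.87 against 0.25 over all genes and against a background of 6.05% called lower. After TMM scaling 22 were lower, where 14.7% of all tested genes were lower. *Chgb*, chromogranin B, was 396 and 646 RPKM in the Rescue libraries, against 4674, 3177 and 1271 RPKM in the Diabetic libraries (log2 difference −2.39, SE 0.48, adjusted p = 0.00743). *Scg3*, which holds granins to the granule membrane, was 415 and 700.3 RPKM in the Rescue libraries, against 2621, 2564 and 1904 RPKM in the Diabetic libraries (log2 difference −2.12, SE 0.26, adjusted p = 0.00134). *Nucb2*, the nesfatin precursor, was 114 and 128 RPKM in Rescue and 526, 571 and 372 RPKM in Diabetic islets (log2 difference −1.99). *Ptprn*, the granule membrane protein IA-2, was 100.2 and 153 RPKM in Rescue and 625, 532 and 317 RPKM in Diabetic islets (log2 difference −1.92), and *Pam*, which amidates peptides, was 31.98 and 60.5 RPKM in Rescue and 184, 185 and 127 RPKM in Diabetic islets (log2 difference −1.87). In each of these genes both Rescue libraries lay below every Diabetic library and Rescue 1 was the lower of the pair. Control libraries lay near Rescue 2 (607, 605 and 684 RPKM for *Chgb*, 754, 878 and 958 RPKM for *Scg3*). *Ptprn2*, *Scg2*, *Scg5* and *Chga* were also lower (−1.68, −1.62, −1.24 and −0.99). Genes of the fusion machine did not pass the test, among them *Snap25* (−0.59, adjusted p = 0.262), *Stx1a* (0.46, adjusted p = 0.182) and *Vamp2* (0.06, adjusted p = 0.804). The summed level of the list was 7229 and 11217 RPKM in Rescue, against 25400, 24763 and 19835 RPKM in Diabetic islets. The lymphocyte and myeloid lists were higher in the same libraries and their part in these differences was not tested. Without Rescue 1, 11 of the 30 were lower. The adjusted p was above 0.05 without Rescue 1 for *Chgb* (0.0743) and *Chga* (0.11), and without Diabetic 2 for *Chga* (0.0723).

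**Figure D4:**
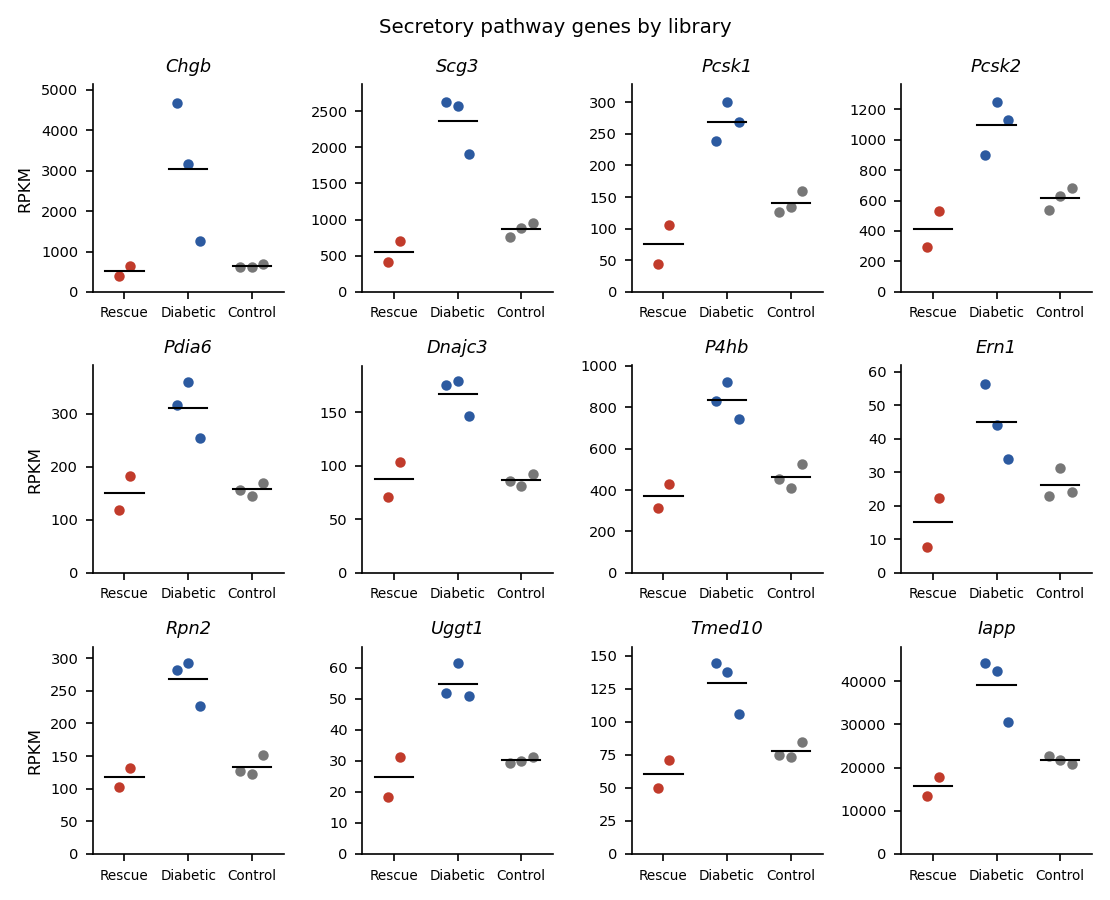
RPKM of 12 genes of the secretory pathway in each library (points) with the group mean (line), Rescue (red), Diabetic (blue) and Control (grey). In each gene both Rescue libraries lie below the 3 Diabetic libraries.

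ER chaperones, folding enzymes and genes of the unfolded protein response were lower in 14 of 49 tested members (28.6%, against 6.05% of all tested genes). Higher was 1, and the median log2 difference was −0.46. After TMM scaling 27 were lower and 0 higher, where 14.7% of all tested genes were lower. *Ern1*, the ER stress sensor IRE1α, was 7.68 and 22.4 RPKM in the Rescue libraries, against 56.4, 44.01 and 34.01 RPKM in the Diabetic libraries (log2 difference −1.65, SE 0.38, adjusted p = 0.0139). *Dnajb9*, a cochaperone that binds it, was 47.9 and 174 RPKM in Rescue and 268, 292 and 217 RPKM in Diabetic islets (log2 difference −1.48). *P4hb*, a protein disulfide isomerase, was 315 and 427 RPKM in the Rescue libraries, against 831, 923 and 744 RPKM in the Diabetic libraries (log2 difference −1.17, SE 0.19, adjusted p = 0.00331), and *Pdia6*, another, was 118 and 182 RPKM in Rescue and 316, 361 and 254 RPKM in Diabetic islets (log2 difference −1.06). *Hyou1*, an ER chaperone, was 68.3 and 142 RPKM in Rescue and 195, 244 and 229 RPKM in Diabetic islets (log2 difference −1.16). *Edem3* and *Os9*, which send misfolded glycoproteins to degradation, were lower, at −1.24 and −1.0, *Dnajc3*, a brake on the PERK kinase, at −0.95, *Wfs1*, wolframin, at −0.90 and *Manf* at −0.46. The chaperones *Hspa5*, *Hsp90b1*, *Calr* and *Canx* were not called as deposited (log2 differences −0.65, −0.39, −0.35 and −0.45), and passed the test after TMM scaling (adjusted p = 0.0234, 0.0195, 0.0476 and 0.0408). *Hspa5*, the chaperone BiP, was 308 and 524 RPKM in Rescue and 592, 590.3 and 723 RPKM in Diabetic islets, both Rescue libraries being below the 3 Diabetic libraries. The transcription factors of the response were not called, *Xbp1* at 95.04 and 115.3 RPKM in Rescue and 101, 94.4 and 88.6 RPKM in Diabetic islets (0.15), *Atf4* (0.31), *Atf6* (−0.64) and *Ddit3*, the factor CHOP (0.74), although *Atf6* passed after TMM scaling (−0.91, adjusted p = 0.0353). *Ppp1r15b*, a phosphatase subunit that restores translation, was the gene called higher (0.49; after TMM scaling 0.23, adjusted p = 0.322). *Xbp1* is also a plasma cell factor, and plasma cell markers were higher in Rescue, and their part in its level was not tested. Without Rescue 1, 6 of the list were lower, without Diabetic 2, 7, and without Rescue 2, 22. Calls were lost, with the adjusted p in parentheses, without Rescue 1 for *Ern1* (0.0743), *Dnajb9* (0.193), *Pdia6* (0.0567), *Wfs1* (0.256) and *Manf* (0.167), without Rescue 2 for *Ppp1r15b* (0.113), without Diabetic 1 for *Dnajb9* (0.0613), *Manf* (0.0737) and *Ppp1r15b* (0.0626), without Diabetic 2 for *Dnajb9* (0.111), *Hyou1* (0.0517), *Wfs1* (0.117), *Manf* (0.143) and *Ppp1r15b* (0.119), without Diabetic 3 for *Dnajb9* (0.0565), *Wfs1* (0.0914) and *Manf* (0.0669), without Control 1 for *Dnajb9* (0.0514), *Wfs1* (0.0595), *Manf* (0.0722) and *Ppp1r15b* (0.0628), without Control 3 for *Dnajb9* (0.0547), *Wfs1* (0.0505), *Manf* (0.069) and *Ppp1r15b* (0.0616), and without Control 4 for *Dnajb9* (0.0515) and *Wfs1* (0.0531).

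The ER stress response element, CCAAT and CCACG with 9 free bases between them, was searched on both strands in the same promoter windows, since ATF6 and XBP1 act through it. It was found in 9 of 43 windows of the list (20.9%), against 15 of 9815 tested genes (0.153%) and 37 of all 27025 genes with a window (0.137%). The 9 genes were *Hspa5*, *Calr*, *Hsp90b1*, *Canx*, *Derl3*, *Syvn1*, *Pdia6*, *Dnajc3* and *Creld2*, of which *Pdia6*, *Dnajc3* and *Creld2* (−0.70) were lower in Rescue islets and the other 6 were not called. The 200 bases before the start of the 3 genes called lower are printed with the element in capitals: *Pdia6* (chr12:17266389-17266588, plus strand), *Dnajc3* (chr14:118937732-118937931, plus strand) and *Creld2* (chr15:88819446-88819645, plus strand, where the element reads on the other strand).
*Pdia6*: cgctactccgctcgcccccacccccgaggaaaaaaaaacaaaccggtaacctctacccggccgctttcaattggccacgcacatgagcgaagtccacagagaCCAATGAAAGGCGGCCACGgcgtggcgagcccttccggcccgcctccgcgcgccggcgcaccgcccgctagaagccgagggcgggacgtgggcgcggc
*Dnajc3*: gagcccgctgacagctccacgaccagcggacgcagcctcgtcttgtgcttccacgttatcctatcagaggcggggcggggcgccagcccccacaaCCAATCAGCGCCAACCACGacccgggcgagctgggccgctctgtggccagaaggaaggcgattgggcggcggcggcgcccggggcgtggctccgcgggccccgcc
*Creld2*: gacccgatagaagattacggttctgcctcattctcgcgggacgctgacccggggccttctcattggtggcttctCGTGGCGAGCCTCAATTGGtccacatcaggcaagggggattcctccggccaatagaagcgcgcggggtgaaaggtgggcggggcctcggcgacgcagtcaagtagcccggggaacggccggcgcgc
The share of windows with the element is a property of the list and was not compared between the genes that were and were not called. With 1 library left out, the adjusted p exceeded 0.05 without Rescue 1 for *Pdia6* (0.0567) and *Creld2* (0.114), without Rescue 2 for *Creld2* (0.0708), without Diabetic 1 for *Creld2* (0.052), and without Diabetic 2 for *Creld2* (0.0906).

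N-linked glycosylation genes were lower in 14 of 37 tested members (37.8%, against 6.05% of all tested genes) and higher in 1 (*Mgat1*, 0.56). Their median was −0.51. After TMM scaling 23 were lower and 0 higher, where 14.7% of all tested genes were lower. *Rpn2*, a subunit of the oligosaccharyltransferase, was 103 and 132 RPKM in the Rescue libraries, against 282, 293 and 227 RPKM in the Diabetic libraries (log2 difference −1.18, SE 0.18, adjusted p = 0.00262). *Uggt1*, which tests the fold of glycoproteins, was 18.3 and 31.4 RPKM in Rescue and 51.9, 61.5 and 50.8 RPKM in Diabetic islets (log2 difference −1.15), and *Gfpt1*, the first enzyme of the hexosamine pathway, was 23.7 and 57.2 RPKM in Rescue and 102, 106 and 87.2 RPKM in Diabetic islets (log2 difference −1.38). *Alg2* and *Alg11*, mannosyltransferases of the lipid-linked donor, were lower, at −0.98 and −1.31, and *Prkcsh*, a subunit of glucosidase II, at −1.34. The catalytic subunits *Stt3a* and *Stt3b* were not called (−0.40 and −0.25, adjusted p = 0.139 and 0.295), although *Stt3a* passed after TMM scaling (−0.67, adjusted p = 0.0232). Without Rescue 1, 6 were lower, and without Diabetic 2, 8. The threshold was missed, at the adjusted p given, without Rescue 1 for *Mgat1* (0.18) and *Prkcsh* (0.0599), without Diabetic 2 for *Mgat1* (0.118), without Diabetic 3 for *Mgat1* (0.0841), and without Control 3 for *Mgat1* (0.0603).

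Entry into the ER and the vesicles that leave it moved in the same direction. Of 31 tested genes of translocation and signal peptide cleavage 11 were lower (35.5%, against 6.05% of all tested genes) and 0 higher (median −0.37). After TMM scaling 17 were lower, where 14.7% of all tested genes were lower. *Sec11c*, a signal peptidase, was 62.4 and 54.6 RPKM in the Rescue libraries, against 154, 141 and 95.6 RPKM in the Diabetic libraries (log2 difference −1.11, SE 0.24, adjusted p = 0.0103), *Ssr4*, a subunit of the translocon-associated complex, was 91.9 and 73.7 RPKM in Rescue and 194, 174 and 136 RPKM in Diabetic islets (log2 difference −1.0), and *Srpr*, the receptor of the signal recognition particle, was 118 and 165 RPKM in Rescue and 234, 260.0 and 269 RPKM in Diabetic islets (log2 difference −0.86). The channel subunits *Sec61a1*, *Sec61b* and *Sec61g* were not called (−0.21, 0.02 and 0.21). Of 38 tested COPII and COPI genes 15 were lower (39.5%, against 6.05% of all tested genes) and 0 higher (median −0.52). After TMM scaling 25 were lower, against the same 14.7% of all tested genes. *Tmed3*, a cargo receptor, was 102 and 82.5 RPKM in Rescue and 257, 237 and 183 RPKM in Diabetic islets (log2 difference −1.27), and *Tmed10*, another, was 50.1 and 71.3 RPKM in Rescue and 145, 138 and 106 RPKM in Diabetic islets (log2 difference −1.09). *Lman1*, a cargo lectin, was 48.9 and 86.1 RPKM in Rescue and 168, 171 and 121 RPKM in Diabetic islets (log2 difference −1.21), and *Kdelr3*, which returns ER residents, was lower, at −1.25. Coat subunits such as *Sec23a*, *Sec24a* and *Copg1* were not called (−0.12, 0.10 and −0.33), although *Copg1* passed after TMM scaling (−0.60, adjusted p = 0.0173). Without Rescue 1, 3 of the translocation genes and 4 of the vesicle genes were lower, without Diabetic 2, 3 and 4, and without Diabetic 1, 6 and 9. Without Control 1 or Control 3, 6 of the translocation genes were lower, and without Rescue 2, 24 of the vesicle genes.

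**Figure D5:**
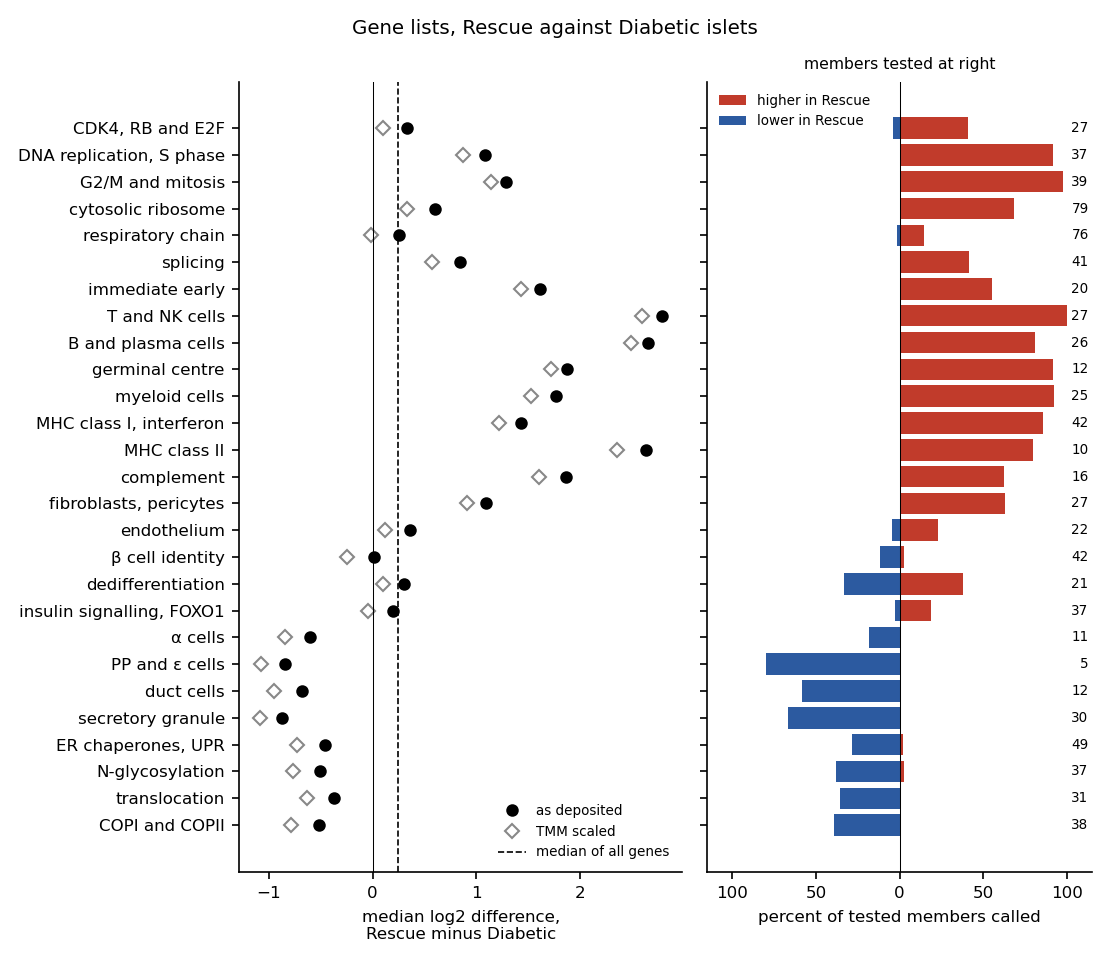
Left, median log2 difference of the tested members of 27 gene lists, as deposited (filled) and after TMM scaling (open), with the median of all tested genes as a dashed line. Right, percent of tested members called higher (red) or lower (blue) in Rescue, with the number tested at the edge. Granule, ER, glycosylation, translocation and vesicle lists lie at −0.37 to −0.87 and immune lists at 1.43 to 2.79.

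Insulin signalling and FOXO genes were mostly not called. Of 37 tested 7 were higher (18.9%, against 24.9% of all tested genes) and 1 was lower (2.7%, against 6.05%). The median was 0.20 as deposited, and −0.04 after TMM scaling with 4 higher and 4 lower. *Foxo1*, the factor that insulin signalling holds out of the nucleus, was 18.4 and 15.5 RPKM in the Rescue libraries, against 9.53, 10.1 and 10.3 RPKM in the Diabetic libraries (log2 difference 0.70, SE 0.14, adjusted p = 0.00771), and after TMM scaling its log2 difference was 0.44 (adjusted p = 0.0915). Genes of IGF handling were called in both directions. *Igfbp4*, an IGF binding protein, was 21.7 and 20.7 RPKM in Rescue and 5.84, 3.79 and 1.68 RPKM in Diabetic islets (log2 difference 2.32), and *Igfbp5*, another, was 12.5 and 15.1 RPKM in Rescue and 3.69, 3.54 and 3.46 RPKM in Diabetic islets (log2 difference 1.69). *Igf1*, which passed the filter only through Rescue, was near 1 RPKM in Rescue (1.01 and 1.07 RPKM) and at 0.1901, 0.1502 and 0.0551 RPKM in Diabetic islets (log2 difference 0.85), and *Igf1r*, its receptor, was 7.15 and 7.21 RPKM in Rescue and 14.2, 14.04 and 8.82 RPKM in Diabetic islets (log2 difference −0.68). *Bcl6*, a FOXO target that is also a germinal centre factor, was 6.31 and 5.13 RPKM in Rescue and 1.14, 1.14 and 0.279 RPKM in Diabetic islets (log2 difference 1.89). *Irs1* and *Insr*, the adaptor relative of IRS2 and the insulin receptor, were not called (0.04 and −0.31, adjusted p = 0.881 and 0.379), and neither was *Txnip*, a glucose-responsive gene, at 100.4 and 159 RPKM in Rescue and 422, 136 and 64.6 RPKM in Diabetic islets (−0.29, adjusted p = 0.775). The adjusted p was above 0.05 without Rescue 1 for *Igf1r* (0.135), without Rescue 2 for *Igf1r* (0.0854), without Diabetic 1 for *Igf1r* (0.0698), without Diabetic 2 for *Igf1r* (0.119), without Control 1 for *Igf1r* (0.0575), without Control 3 for *Igf1r* (0.0616), and without Control 4 for *Igf1r* (0.0501).

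Among metabolic genes, 5 of 26 tested glycolysis and lipogenesis genes were higher (19.2%) and 2 lower (7.69%). Over all tested genes 24.9% were higher and 6.05% lower. *Scd1*, a fatty acid desaturase, was 15.5 and 23.9 RPKM in Rescue and 6.86, 2.29 and 0.645 RPKM in Diabetic islets (log2 difference 2.54), *Pfkp*, a phosphofructokinase, and *Slc2a1*, the glucose transporter GLUT1, were higher by 0.89 and 0.80, and *Gpd1*, glycerol phosphate dehydrogenase, was 8.43 and 10.9 RPKM in Rescue and 23.6, 26.02 and 20.1 RPKM in Diabetic islets (log2 difference −1.19, SE 0.19, adjusted p = 0.00311). Of 23 tested genes of cholesterol synthesis 1 was higher (4.35%) and 2 lower (8.7%). *Sqle*, squalene epoxidase, was 9.38 and 16.3 RPKM in Rescue and 28.6, 26.1 and 28.3 RPKM in Diabetic islets (log2 difference −1.09). Of 76 tested genes of the respiratory chain 11 were higher (14.5%) and 1 lower (1.32%), with a median of 0.26. After TMM scaling 1 was higher and 3 lower (median −0.01). *Ndufa1*, a subunit of complex I, was 172 and 120.5 RPKM in Rescue and 384, 372 and 250.9 RPKM in Diabetic islets and was lower with either scaling (log2 difference −1.19, SE 0.23, adjusted p = 0.00612). Without Rescue 1, 2 of the glycolysis and lipogenesis genes were higher, and 3 without Rescue 2 or without Diabetic 2. The count of 11 respiratory chain genes was 1 without Rescue 1, 37 without Rescue 2, 2 without Diabetic 2, 5 without Diabetic 3 and 5 to 7 without 1 of the Control libraries. Calls were lost, with the adjusted p in parentheses, without Rescue 1 for *Scd1* (0.0565) and *Pfkp* (0.0504), without Rescue 2 for *Scd1* (0.063) and *Slc2a1* (0.0545), and without Diabetic 2 for *Slc2a1* (0.0522).

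Ribosomal protein genes were higher in 54 of 79 tested members (68.4%, against 24.9% of all tested genes) and lower in 0 (median 0.60). After TMM scaling 12 were higher and the median was 0.33. Of all tested genes 16.7% were then higher, with a median of 0.02. *Rps19* was 68.6 and 42.7 RPKM in the Rescue libraries, against 25.7, 22.1 and 22.6 RPKM in the Diabetic libraries (log2 difference 1.18, SE 0.19, adjusted p = 0.00345), and *Rps15a* was 54.4 and 42.9 RPKM in Rescue and 25.7, 22.6 and 21.2 RPKM in Diabetic islets (log2 difference 1.03). Many ribosomal proteins have near-identical pseudogenes, so their values are uncertain. The summed level of the list was 24783 and 18727 RPKM in Rescue, against 15610, 14969 and 13374 RPKM in Diabetic islets. The part of the immune and stromal lists in this difference was not tested. The count of 54 was 13 without Rescue 1, 20 without Diabetic 2 and 29 without Diabetic 3.

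The Rescue libraries differed from each other. In 451 tested genes they were at least 2-fold apart, 134 higher in Rescue 1 and 317 higher in Rescue 2. Immediate early genes, which respond within minutes to handling and other stimuli, were higher in Rescue 2. Their centred mean was 0.25 and 1.57 in Rescue 1 and Rescue 2 and 0.37, −0.88 and −1.31 in the Diabetic libraries. *Fos* was 23.5 and 199.8 RPKM in Rescue and 124, 4.43 and 2.45 RPKM in Diabetic islets, with the highest Diabetic library above Rescue 1 (log2 difference 2.4, adjusted p = 0.322). Of the 20 tested members 11 were higher, and of the 16 at 1 RPKM in both groups 8 were higher. Among the 11, *Zfp36*, which degrades inflammatory mRNA, was 38.4 and 86.6 RPKM in Rescue and 17.3, 4.63 and 3.504 RPKM in Diabetic islets (log2 difference 2.92). *Klf2*, a factor of resting lymphocytes and endothelium, was 32.6 and 28.2 RPKM in Rescue and 11.1, 8.55 and 5.401 RPKM in Diabetic islets (log2 difference 1.79). Without Rescue 2, 4 of the tested members were higher, 6 without Diabetic 2 or without Diabetic 3, and 7 without Control 1. With 1 library left out, the adjusted p exceeded 0.05 without Rescue 2 for *Zfp36* (0.0511).

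Nuclear-retained RNAs separated Diabetic 2 and Diabetic 3 from the other 3 libraries of the comparison. Their centred mean was 1.02 and 0.72 in Rescue, against 0.83, −1.31 and −1.26 in Diabetic islets. In Control 1, Control 3 and Control 4 it was 1.01, 0.64 and −1.2. The split thus ran across genotypes, with both Rescue libraries on the side of Diabetic 1, Control 1 and Control 3. *Meg3*, a long noncoding RNA, was 151 and 49.9 RPKM in Rescue and 102, 3.78 and 5.35 RPKM in Diabetic islets and *Malat1*, another, was 1395 and 261 RPKM in Rescue and 248, 109.6 and 97.95 RPKM in Diabetic islets, and 0 of the 18 tested members were called by limma (adjusted p = 0.242 and 0.0927), 4 were higher at an unadjusted p under 0.05, and voom on the recovered reads called 2. Without Diabetic 1, 13 of the 18 were higher. Splicing factors were higher in 17 of 41 tested members (10 after TMM scaling, 0 lower), with *Hnrnpm* at 46.2 and 48.3 RPKM in Rescue and 28.4, 20.1 and 23.4 RPKM in Diabetic islets (log2 difference 0.96). The count of 17 was 4 without Rescue 1, 34 without Diabetic 1, 7 without Diabetic 2 and 9 without Diabetic 3. Since Diabetic 1 held nuclear-retained RNA at the level of the Rescue libraries, the comparison was also made with Diabetic 1 as the only Diabetic library, an alternative chosen after seeing the data. Then 1210 genes (9.84%) were higher and 307 (2.5%) lower. Of the lists, 32 of 39 mitosis genes and 21 of 37 S phase genes were higher, and 8 of 30 granule genes, 3 of 49 ER genes and 4 of 37 glycosylation genes were lower. Of the T and NK cell genes 26 of 27 were higher, of the B and plasma cell genes 4 of 26, of the immediate early genes 2 of 20 and of the ribosomal protein genes 1 of 79. Of the 41 splicing factors 0 were called by limma (5 higher at an unadjusted p under 0.05). With the nuclear-retained mean as a covariate 1999 genes were higher and 491 lower. The part of immediate early RNA in the other differences was not tested.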

How the data were processed

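RNA of whole islets was sequenced in 8 libraries, and the 5 Rescue and Diabetic libraries were compared. Per the labels and the study's methods, the authors aligned paired-end reads to mm10 with STAR, counted reads per gene with HTSeq and used edgeR, with versions not given in the sources used here. The deposited table holds the authors' RPKM values for 24123 genes. Fold changes and p-values of the authors were not used. RPKM is not a count, so it was tested on log2(RPKM + 1), and a fold change on that scale understates the change of low genes. The filter on low values asked for 1 RPKM or more in 2 or more of these 5. A linear model over the 3 groups, with 1 spread estimated from all 8 libraries, was fitted with limma 3.58.1 (R 4.3.3) with a trend on expression, and p-values were adjusted by Benjamini and Hochberg over all 12301 tested genes, with a threshold of 0.05. The script was tested on simulated data. The steps of the RPKM values gave whole reads within 0.01 reads for 100% of the 18126 genes above 0, or 10.3 to 14.3 M reads in genes per library. A count of few reads therefore limits genes near 1 RPKM. Alternatives were another pseudocount, filter, scaling, variance model, covariate, threshold or set of libraries, and voom on the recovered reads. The genes and lists were chosen with earlier results of these data known. Genes were named by list membership, or as the 15 largest differences in each direction, overall and outside the lists, among called genes whose groups did not overlap and whose mean reached 5 RPKM in either group. Some list members are not reported here. Promoter windows came from a RefSeq table of GRCm38.p6.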

Additional observations from a re-analysis of the deposited data

How the results depend on the processing

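As deposited 3057 genes were higher and 744 lower in Rescue islets. Scaling moved the balance of directions, with 2050 higher and 1813 lower after TMM, 2130 and 1697 after median-of-ratios and 1793 and 2371 after quantile normalization, so 53.1%, 55.7% and 43.1% of calls were higher. A mean of at least 5 RPKM left 6873 genes, with 1411 higher and 572 lower, and no filter gave 3560 and 668 of 17812. A fit to the 5 libraries alone, which has fewer samples, gave 2034 and 311. The nuclear-retained covariate gave 1999 and 491, an adjusted p under 0.01 gave 1468 and 171, and a log2 difference of at least 1 gave 1444 and 277. Leaving out 1 library gave 1485 to 3750 genes higher and 152 to 1514 lower. Of 2 alternatives chosen after seeing the data, Diabetic 1 as the only Diabetic library gave 1210 and 307 (1 library is then assumed to vary like the others), and voom on the recovered reads gave 3244 and 660. Pseudocounts of 0.1 and 0.5 gave 2733 and 712 and 2984 and 743. The cause of these shifts was not tested.

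Of the 238 tested genes named, 176 were called. The direction of all 176 was kept under each of the 23 alternatives that gave them a value, and 67 were called under every one. A mean of at least 5 RPKM gave a value for 146 of the 176, and the others for all. TMM scaling ended 6 calls (*Foxo1*, *Ccnd3*, *Ccne1*, *Ppp1r15b*, *Mgat1* and *Ly6d*) and added 8. Leaving out Rescue 1 ended 65, Diabetic 1 as the only Diabetic library 58, the nuclear-retained covariate 38, leaving out Diabetic 2 27 and the fit to 5 libraries 21. Same-numbered libraries did not deviate together throughout (Pearson r over genes 0.38 for Rescue 1 with Control 1, 0.343 for Diabetic 1 with Control 1, 0.085 for Rescue 1 with Diabetic 1, 0.069 for Rescue 2 with Diabetic 2 and −0.278 for Diabetic 3 with Control 3). Libraries of different numbers ranged from −0.587 (Diabetic 1 with Control 4) to 0.526 (Diabetic 2 with Control 4). With 2 Rescue libraries the deviations mirror each other, so these values cannot tell whether the numbers pair the samples. With the replicate block 2135 genes were higher and 516 lower, 19 of the named calls were lost and 6 were gained. With the block *Cdk4* passed the limma test (adjusted p = 0.0315) and *Ccnd1* did not (adjusted p = 0.0564), and 5 of 18 acinar genes were lower.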
